A study of Mus musculus with 13 samples.

Results

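The genes described here are 44 cell cycle genes, 16 that work in S phase or at its entry and 28 that work in mitosis or prepare for it, chosen by symbol for these roles and not by a threshold on their values. Of these, 41 had an expression value, 15 S-phase and 26 mitotic genes, each through 1 of the 22206 features tested. The other 3, Mcm7, Ccnb1 and Foxm1, were not analysed here.

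RNA pools from 4T1 mammary tumours were hybridised to Clariom S mouse arrays. The 4T1 line is a mouse mammary carcinoma, and its tumours were grown in a mammary fat pad of BALB/c mice that were either Nlrx1-/- or WT. Each host received 1 of 3 lines, 4T1OE, which overexpresses NLRX1, its overexpression control 4T1OE-CTL, or parental 4T1, which was not transduced. Each of the 6 groups held 2 arrays, each array a pool, so the errors and p-values below rest on pools, and the number of arrays limits the precision. In the fits of host and line without their interaction, the errors also take in host differences that varied between lines. The promoter and the vector behind the overexpression, the way the Nlrx1 allele was deleted, the number of tumours in a pool, and the age of the mice were not given in the sources used here. NLRX1 belongs to the NOD-like receptors and sits in mitochondria. The hosts differed in their own Nlrx1, whereas the lines differed in the tumour cells, so the host genotype is not that of the tumour cells. The arrays measured RNA and not NLRX1 protein.

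Cells double their DNA in S phase and share it out in mitosis. Entry into S phase is driven by cyclin E and the E2F transcription factors, which raise the genes for helicase loading, nucleotide supply and the replication fork. Late in the cycle a second wave of genes supplies cyclin-dependent kinase 1 with its cyclins and builds the spindle, the kinetochore and its checkpoint, and the anaphase-promoting complex then ends mitosis. Many late genes carry a promoter element called the CHR beside CCAAT boxes, through which the DREAM and MuvB complexes repress or activate them, while many S-phase genes carry E2F sites.

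Promoters were available in RefSeq's mouse build GRCm38.p6, as 250 bases before to 50 bases after the start of transcription, for 34 of the 41 measured genes, 22 mitotic and 12 S-phase. These windows were searched on both strands for 3 elements. The CHR was searched as TTTGAA and, in a second form, as TTCGAA. The CCAAT box was searched by the letters of its name. The E2F site was searched in 4 forms, of which TTCCCGC was the first, with TTGGCGC as the second, with TTGCCGC as the third and with TTCGCGC as the last. A CHR was found in 18 of 22 mitotic promoters (81.8%) and 1 of 12 S-phase promoters (8.33%), against 21.7% of the promoters of all 27025 genes. The single S-phase gene with one was Mcm2, which was named after the search. A CCAAT box was found in 17 of 22 mitotic promoters (77.3%) and in 8 of 12 S-phase promoters (66.7%), against 41.1% of all genes. An E2F form was found in 2 of 22 mitotic promoters (9.09%), those of Cdk1 and Mki67, and in 7 of 12 S-phase promoters (58.3%), against 10.9% of all genes. Both a CHR and a CCAAT box were found in 16 of 22 mitotic promoters (72.7%), 1 of 12 S-phase promoters (8.33%) and 8.61% of all genes. A match is only a match of letters, and no binding was measured.

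Promoters of 6 genes are printed below, since they belong to the 4 mitotic and 2 S-phase genes with the largest difference between 4T1OE and parental tumours among genes with 1 promoter window. Capitals mark every CHR, CCAAT box and E2F match on either strand, and matches that overlap run together. Their positions are chr2:164769679-164769978 (plus strand) for Ube2c, chr7:135716330-135716629 (minus strand) for Mki67, chr2:127831810-127832109 (minus strand) for Bub1, chr4:118437294-118437593 (minus strand) for Cdc20, chr12:24708004-24708303 (plus strand) for Rrm2 and chr8:75109259-75109558 (plus strand) for Mcm5.
Ube2c: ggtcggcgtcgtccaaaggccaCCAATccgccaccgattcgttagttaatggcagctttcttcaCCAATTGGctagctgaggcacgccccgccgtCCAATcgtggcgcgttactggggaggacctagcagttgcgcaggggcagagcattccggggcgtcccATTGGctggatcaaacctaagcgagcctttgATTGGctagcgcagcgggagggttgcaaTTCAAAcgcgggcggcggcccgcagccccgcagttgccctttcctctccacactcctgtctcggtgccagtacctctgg
Mki67: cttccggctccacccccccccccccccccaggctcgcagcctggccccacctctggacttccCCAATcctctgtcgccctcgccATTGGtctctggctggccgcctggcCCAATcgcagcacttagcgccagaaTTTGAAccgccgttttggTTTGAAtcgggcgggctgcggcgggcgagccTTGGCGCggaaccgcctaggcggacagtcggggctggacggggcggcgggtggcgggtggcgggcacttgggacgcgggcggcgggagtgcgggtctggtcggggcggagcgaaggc
Bub1: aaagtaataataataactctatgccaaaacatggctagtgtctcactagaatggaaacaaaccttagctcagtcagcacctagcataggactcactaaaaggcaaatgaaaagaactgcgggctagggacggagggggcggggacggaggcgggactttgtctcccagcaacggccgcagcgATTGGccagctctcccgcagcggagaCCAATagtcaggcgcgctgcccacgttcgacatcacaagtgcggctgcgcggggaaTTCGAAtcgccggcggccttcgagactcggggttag
Cdc20: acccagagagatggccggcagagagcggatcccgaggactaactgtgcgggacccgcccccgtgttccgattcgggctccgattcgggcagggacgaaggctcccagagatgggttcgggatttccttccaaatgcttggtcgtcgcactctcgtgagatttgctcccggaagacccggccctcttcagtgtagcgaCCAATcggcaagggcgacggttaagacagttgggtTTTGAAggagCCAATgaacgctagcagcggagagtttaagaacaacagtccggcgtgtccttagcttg
Rrm2: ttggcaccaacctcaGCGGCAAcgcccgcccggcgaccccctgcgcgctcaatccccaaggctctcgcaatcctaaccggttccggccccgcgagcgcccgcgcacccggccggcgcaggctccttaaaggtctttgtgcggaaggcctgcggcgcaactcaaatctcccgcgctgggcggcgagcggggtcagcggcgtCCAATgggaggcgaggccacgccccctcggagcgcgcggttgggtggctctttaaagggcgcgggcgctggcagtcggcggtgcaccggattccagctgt
Mcm5: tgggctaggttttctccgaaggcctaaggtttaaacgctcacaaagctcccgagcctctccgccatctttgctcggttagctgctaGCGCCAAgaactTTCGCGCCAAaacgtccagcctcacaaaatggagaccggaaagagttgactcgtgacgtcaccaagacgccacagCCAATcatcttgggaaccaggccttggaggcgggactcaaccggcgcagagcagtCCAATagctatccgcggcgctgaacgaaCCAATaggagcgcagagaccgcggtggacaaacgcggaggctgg
In Ube2c the CHR, read on the other strand as TTCAAA, began 29 bases before the start, downstream of 6 CCAAT box matches. Those beginning 186 and 183 bases before the start overlap on opposite strands. In Mki67 a pair of CHR copies began 116 and 98 bases before the start, with 1 E2F form between them and the start. In Cdc20 the CHR began 18 bases before the start, while in Bub1 it began 14 bases after it. The promoters of Rrm2 and Mcm5 held no CHR and had 1 and 3 E2F matches. In Mcm5 those beginning 152 and 149 bases before the start overlap.

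The lines were checked first by Nlrx1 itself, which ran from 9.31 to 10.67 (log2) on the 4 4T1OE arrays, against 5.99 to 7.13 on the 8 others, so the ranges did not overlap. Of 13 epithelial markers, 7 (Epcam, Cdh1, Krt7, Krt8, Krt18, Cldn4 and Grhl2) lay above the median of the negative control features on all 12 arrays. The other 6 lay under it on some arrays, Krt5 on 10, Krt19 and Cldn7 on 8 each, Esrp1 on 5, Krt14 on 2 and Cldn3 on 1. One array, Nlrx1-/- parental replicate 1, carries a recommendation in its own label to be left out, after a principal component analysis by the array service. The fits therefore did without it, which left 1 fitted array for Nlrx1-/- parental tumours, assumed to vary like the others. Its values are given throughout, first among the Nlrx1-/- parental values. The standard deviation of the values on an array ran from 2.53, on that array, to 3.12, and 4 of the 11 fitted arrays were under 3, namely 1 WT parental array and 3 of 4T1OE-CTL. The same left-out array and the replicate 1 arrays of Nlrx1-/- 4T1OE and Nlrx1-/- 4T1OE-CTL stood out for B cell genes. The replicate 1 arrays of WT 4T1OE and WT 4T1OE-CTL and replicate 2 of Nlrx1-/- 4T1OE-CTL stood out for skeletal muscle genes.

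Seen over all 12 arrays, the cell cycle genes were lowest in parental tumours of Nlrx1-/- hosts and highest on 1 array of 4T1OE-CTL. All 41 genes had their lowest value on a Nlrx1-/- parental array, 33 on replicate 2 and 8 on replicate 1. Of the 41, 28 had their highest value on WT 4T1OE-CTL replicate 2, and 12 on a 4T1OE array. Gins2 alone was highest on a parental array, WT replicate 2. The span between a gene's lowest and highest array ran from 1.55 for Tyms to 4.45 for Rrm2 on the log2 scale. Of the 41 genes, E2f1, Cdc6 and Gins2 lay under the negative control median on some arrays, E2f1 on 5 and Cdc6 and Gins2 on 1 each.

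**Figure D1:**
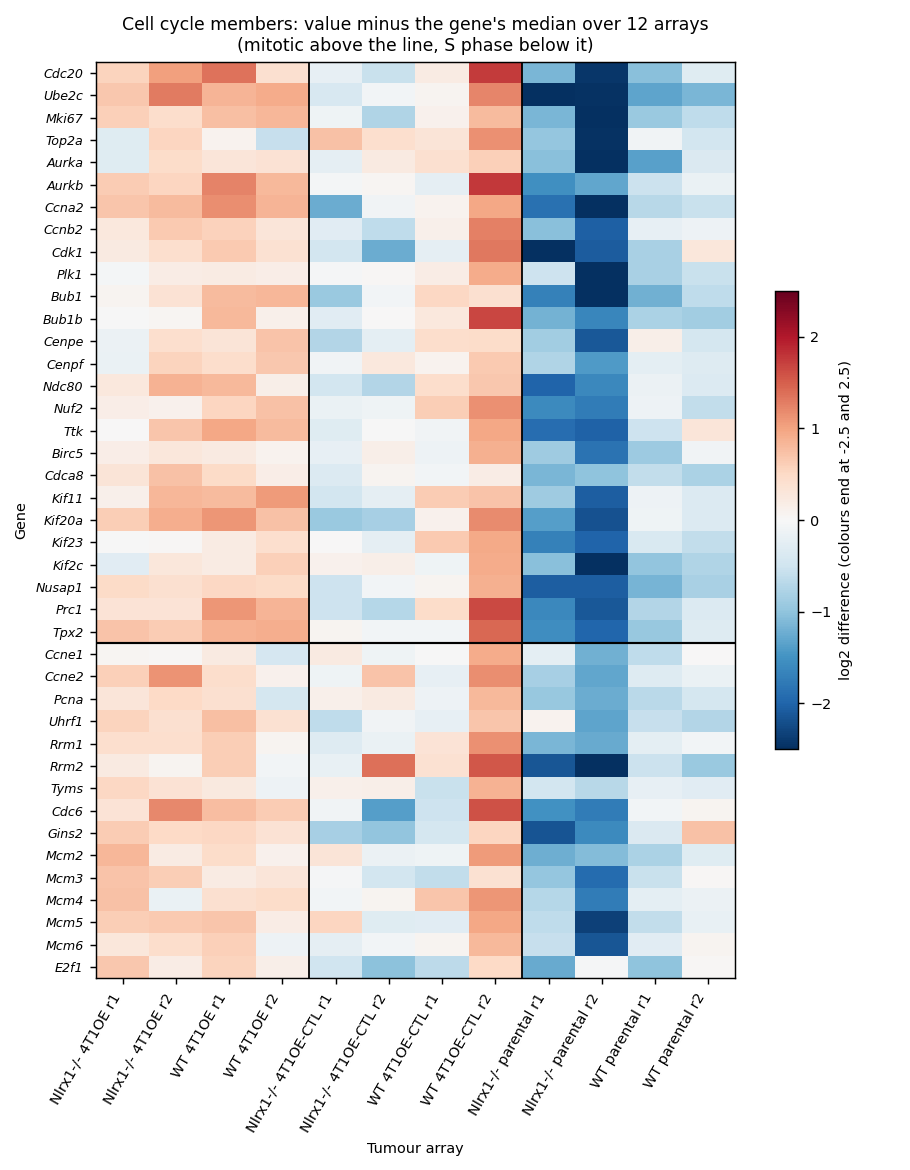
Heat map of the 41 measured cell cycle genes (y axis, mitotic genes above the line and S-phase genes below it) on the 12 tumour arrays (x axis, grouped by line as 4T1OE, 4T1OE-CTL and parental), with colour for the distance of each log2 value from that gene's 12-array median. The Nlrx1-/- parental arrays are blue nearly throughout, and WT 4T1OE-CTL replicate 2 is red nearly throughout.

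For each array, a list's level was computed by subtracting from every gene its own 12-array median and taking the middle of these deviations. The mitotic level was 0.20 and 0.49 in Nlrx1-/- and 0.70 and 0.64 in WT 4T1OE tumours, at -0.29 and -0.07 in Nlrx1-/- and 0.12 and 0.96 in WT 4T1OE-CTL tumours, and at -1.29 and -2.07 in Nlrx1-/- and -0.72 and -0.40 in WT parental tumours. All parental arrays lay below all transduced ones. The S-phase level was 0.57 and 0.42 in Nlrx1-/- and 0.52 and 0.11 in WT 4T1OE tumours, at -0.09 and -0.10 in Nlrx1-/- and -0.20 and 0.93 in WT 4T1OE-CTL tumours, and at -0.96 and -1.32 in Nlrx1-/- and -0.54 and -0.15 in WT parental tumours. Here WT parental replicate 2 overlapped the 4T1OE-CTL arrays. The S-phase level minus the mitotic level ran from -0.53 to 0.37 on the 4T1OE arrays, from -0.32 to 0.20 on the 4T1OE-CTL arrays and from 0.18 to 0.75 on the parental arrays. The S-phase level was thus the higher one on all 4 parental arrays and on 1 of 4 arrays of each transduced line. In bulk tumours, fewer dividing cells and less of these RNAs per cell cannot be told apart.

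**Figure D2:**
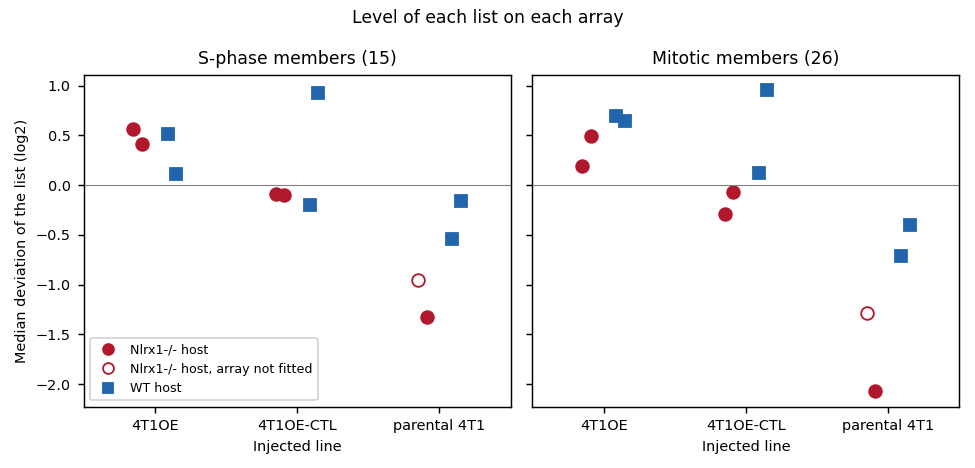
Level of the 15 S-phase genes (left) and the 26 mitotic genes (right) on each array (y axis, median deviation in log2) by injected line (x axis). Red circles are Nlrx1-/- hosts, blue squares WT hosts, and the open circle is the array left out of the fits. The parental arrays reach -1.32 for S phase and -2.07 for mitosis.

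The comparison of 4T1OE with parental tumours gave the largest median difference of the comparisons made. In the limma fit of host and line over 11 arrays, all 41 genes were higher in 4T1OE tumours, by 0.63 to 2.68 on the log2 scale, and 17 rose at an adjusted p under 0.05, the threshold used throughout. Across all features 0.887% rose and 0.441% fell in this comparison. Of the 17, 16 were mitotic and 1, Uhrf1, was an S-phase gene. The median difference was 1.46 over all 41 genes, 1.64 over the mitotic and 1.18 over the S-phase genes, against -0.03 over all features. At an unadjusted p under 0.05, 25 of 26 mitotic and 12 of 15 S-phase genes were higher, against 8.11% of features. Over all 12 arrays, 32 of the 41 genes (22 mitotic, 10 S-phase) had every 4T1OE array above every parental array, a pattern that 8.61% of all features showed.

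The control line 4T1OE-CTL also stood above parental tumours. Of the 41 genes 40 were higher, by up to 2.36, and 14 rose, 12 mitotic genes and the S-phase genes Rrm2 and Mcm4. Across all features 0.968% rose and 1.62% fell. The median difference was 1.16 over all 41 genes, 1.496 over the mitotic and 0.92 over the S-phase genes, against 0.02 over all features. Every 4T1OE-CTL array lay above every parental array for 15 of the 41 genes (11 mitotic, 4 S-phase), against 2.59% of features. The comparisons of 4T1OE and of 4T1OE-CTL with parental tumours share the parental arrays, so their values are given side by side and are not independent.

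Both sets of calls leaned on the single fitted Nlrx1-/- parental array, which was low for nearly every gene. Without it, 3 genes rose in 4T1OE against parental tumours, beside 0.194% of features, and 0 in 4T1OE-CTL, beside 0.266% of features, and the median differences were 1.04 and 0.76. That fit held no Nlrx1-/- parental array, so its parental side was WT hosts only. Leaving out WT 4T1OE replicate 1 or 2 gave 9 or 11 calls against parental tumours, beside 0.293% or 0.311% of features. It gave 4 or 7 where the array was Nlrx1-/- 4T1OE replicate 1 or 2, beside 0.212% or 0.32% of features. Leaving out WT parental replicate 1 gave 11 for 4T1OE, beside 0.365% of features. For 4T1OE-CTL, leaving out WT 4T1OE-CTL replicate 2 gave 9, beside 0.959% of features. Within WT hosts alone the median was 0.84 for 4T1OE and no gene was called in either comparison. In those fits 0% of all features rose for 4T1OE and 0.279% for 4T1OE-CTL. Within Nlrx1-/- hosts, with the left-out array included, no gene was called either, nor any feature (0%). In all 25 fits that gave differences, the 41 genes were higher in 4T1OE than in parental tumours, and at least 39 of them in 4T1OE-CTL.

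**Figure D3:**
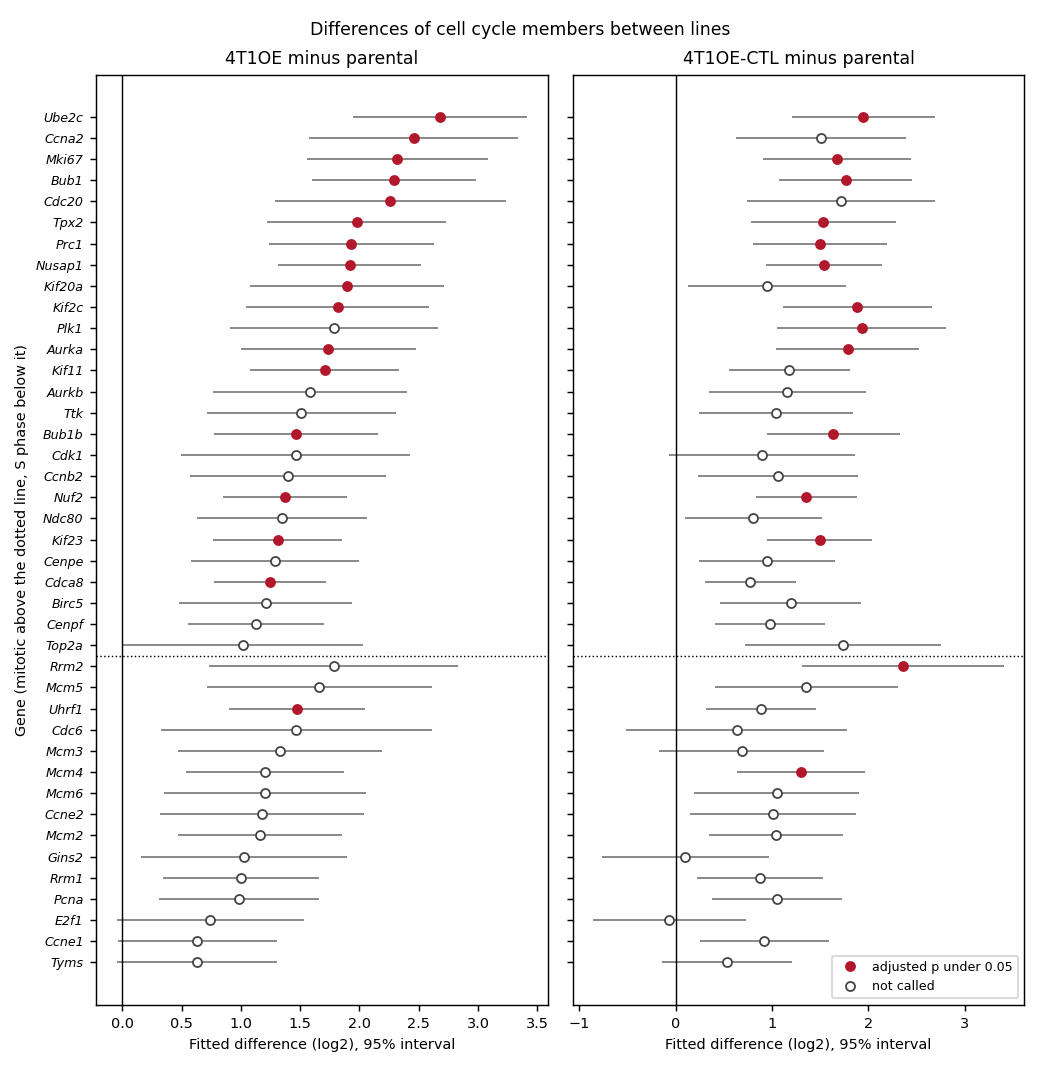
Fitted log2 difference of each gene (points) with its 95% interval (lines) for 4T1OE minus parental (left) and 4T1OE-CTL minus parental (right), from limma over 11 arrays. Filled points passed an adjusted p of 0.05, 17 on the left and 14 on the right, and the mitotic genes above the dotted line hold 16 and 12 of them.

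Other markers moved with these differences. The epithelial list of 13 genes ran from -0.59 to -0.02 on the 4T1OE arrays and from -1.07 to 0.66 on the 4T1OE-CTL arrays, against 0.48 to 2.60 on the parental arrays. Of the 13, 6 fell in 4T1OE and 7 in 4T1OE-CTL tumours relative to parental tumours, Epcam with log2 differences of -5.56 and -5.84, though it lay above the negative controls on every array. Of 8 fibroblast genes, 4 fell in 4T1OE and 2 in 4T1OE-CTL tumours, and all 8 were above the negative controls on every array. By limma no muscle, B cell or T cell gene was called in either comparison, and 1 of 8 endothelial genes fell in 4T1OE-CTL. At an unadjusted p under 0.05, 4 of 12 muscle and 4 of 8 T cell genes were higher in 4T1OE-CTL, with no share of all features to set beside them. Their part in the cell cycle differences was not tested. Without the 3 arrays high in muscle genes, 5 cell cycle genes were called for 4T1OE against parental tumours (0.194% of features rose). For 4T1OE-CTL 2 were called (0.329%). Without the 2 fitted arrays high in B cell genes the counts were 5 (0.252%) and 9 (0.865%). With the standard deviation of the array as a covariate, 8 genes were called for 4T1OE against parental tumours (0.338%). Without the 4 arrays under 3 the median difference for 4T1OE-CTL was 1.75, with WT replicate 2 as the only 4T1OE-CTL array left.

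Among the mitotic genes the anaphase-promoting complex gave the largest difference. Ube2c was at 11.61 and 12.22 in Nlrx1-/- and 11.77 and 11.87 in WT 4T1OE tumours, at 10.53 and 10.86 in Nlrx1-/- and 10.999 and 12.14 in WT 4T1OE-CTL tumours, and at 8.38 and 8.46 in Nlrx1-/- and 9.62 and 9.79 in WT parental tumours. Ube2c is the ubiquitin-conjugating enzyme of that complex, and all 4 of its parental values lay under all 8 others. The fitted difference was 2.68 ± 0.34 (SE, adjusted p = 0.00573) for 4T1OE against parental tumours, a 6.41-fold rise, and 1.95 ± 0.34 (SE, adjusted p = 0.012) for 4T1OE-CTL. Cdc20 was at 8.75 and 9.21 in Nlrx1-/- and 9.55 and 8.60 in WT 4T1OE tumours, at 7.99 and 7.63 in Nlrx1-/- and 8.38 and 9.94 in WT 4T1OE-CTL tumours, and at 7.04 and 5.76 in Nlrx1-/- and 7.15 and 7.89 in WT parental tumours. Cdc20, which activates the complex, was higher on every 4T1OE array than on any parental array, whereas 4T1OE-CTL overlapped both. It rose by 2.26 (adjusted p = 0.0318) in 4T1OE, and its difference of 1.72 (adjusted p = 0.068) in 4T1OE-CTL did not pass.

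Chromosome structure and proliferation were represented by Mki67 and Top2a. Mki67 was at 15.63 and 15.47 in Nlrx1-/- and 15.79 and 15.88 in WT 4T1OE tumours, at 14.93 and 14.28 in Nlrx1-/- and 15.15 and 15.83 in WT 4T1OE-CTL tumours, and at 13.89 and 12.09 in Nlrx1-/- and 14.12 and 14.39 in WT parental tumours. Mki67 encodes Ki-67, which coats mitotic chromosomes and marks cycling cells. All 4T1OE values were above all parental ones, and Nlrx1-/- 4T1OE-CTL replicate 2 fell just below the higher WT parental value. The limma differences were 2.32 ± 0.35 (SE, adjusted p = 0.011) for 4T1OE and 1.68 ± 0.35 (SE, adjusted p = 0.0283) for 4T1OE-CTL, each against parental tumours. Top2a was at 12.03 and 12.87 in Nlrx1-/- and 12.42 and 11.75 in WT 4T1OE tumours, at 13.07 and 12.75 in Nlrx1-/- and 12.65 and 13.47 in WT 4T1OE-CTL tumours, and at 11.38 and 9.86 in Nlrx1-/- and 12.25 and 11.88 in WT parental tumours. Top2a is the topoisomerase that untangles chromosomes, and here every 4T1OE-CTL array was above every parental one, but WT 4T1OE replicate 2 was below both WT parental arrays. Neither its difference of 1.02 (adjusted p = 0.363) for 4T1OE nor that of 1.73 (adjusted p = 0.0753) for 4T1OE-CTL passed, and within WT hosts alone the value for 4T1OE was 0.02.

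Of 6 measured cyclins and mitotic kinases, Ccna2 and Aurka rose in 4T1OE, and Plk1 and Aurka in 4T1OE-CTL, relative to parental tumours. Ccna2 was at 11.96 and 12.06 in Nlrx1-/- and 12.43 and 12.11 in WT 4T1OE tumours, at 10.02 and 11.16 in Nlrx1-/- and 11.35 and 12.22 in WT 4T1OE-CTL tumours, and at 9.40 and 8.35 in Nlrx1-/- and 10.56 and 10.69 in WT parental tumours. Ccna2, cyclin A, which partners the kinases in S phase and at mitotic entry, differed by 2.46 ± 0.40 (SE, adjusted p = 0.0161) for 4T1OE and by 1.51 (adjusted p = 0.0744) for 4T1OE-CTL. The lowest 4T1OE-CTL array lay below the WT parental values, and the 4T1OE arrays lay above all parental ones. Aurka was at 8.73 and 9.48 in Nlrx1-/- and 9.32 and 9.39 in WT 4T1OE tumours, at 8.80 and 9.26 in Nlrx1-/- and 9.43 and 9.62 in WT 4T1OE-CTL tumours, and at 7.98 and 6.49 in Nlrx1-/- and 7.67 and 8.66 in WT parental tumours. Aurka encodes Aurora A, the centrosome and spindle kinase. Both transduced lines were above all 4 parental arrays, by 1.74 (adjusted p = 0.0299) for 4T1OE and 1.79 (adjusted p = 0.0182) for 4T1OE-CTL. Plk1 was at 11.60 and 11.83 in Nlrx1-/- and 11.85 and 11.82 in WT 4T1OE tumours, at 11.61 and 11.67 in Nlrx1-/- and 11.82 and 12.58 in WT 4T1OE-CTL tumours, and at 11.12 and 8.49 in Nlrx1-/- and 10.82 and 11.09 in WT parental tumours. Plk1 is the polo-like kinase of mitotic entry and exit, and most of its range came from Nlrx1-/- parental replicate 2, since the 3 other parental arrays lay within 0.5 of one another and also under all 8 others. It rose by 1.93 (adjusted p = 0.0275) in 4T1OE-CTL, and its 1.78 (adjusted p = 0.0574) in 4T1OE did not pass. Cdk1 was at 10.12 and 10.33 in Nlrx1-/- and 10.54 and 10.28 in WT 4T1OE tumours, at 9.45 and 8.66 in Nlrx1-/- and 9.68 and 11.21 in WT 4T1OE-CTL tumours, and at 7.21 and 7.82 in Nlrx1-/- and 9.09 and 10.18 in WT parental tumours. Cdk1, the kinase that drives mitosis, overlapped between lines, as WT parental replicate 2 reached the 4T1OE values. Its differences were 1.46 (adjusted p = 0.145) and 0.90 (adjusted p = 0.359) for 4T1OE and 4T1OE-CTL. Ccnb2, a B-type cyclin that partners Cdk1, and Aurkb, the kinase of the chromosomal passenger complex, were called in neither, with differences for 4T1OE of 1.40 and 1.58.

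The spindle checkpoint and kinetochore genes counted 7, of which 3 rose in each comparison, Bub1, Bub1b and Nuf2. Bub1 was at 9.86 and 10.15 in Nlrx1-/- and 10.57 and 10.62 in WT 4T1OE tumours, at 8.87 and 9.72 in Nlrx1-/- and 10.31 and 10.20 in WT 4T1OE-CTL tumours, and at 8.11 and 6.82 in Nlrx1-/- and 8.60 and 9.16 in WT parental tumours. Bub1 is a checkpoint kinase at the kinetochore, and the 4T1OE arrays were all above the parental ones. The difference was 2.29 ± 0.32 (SE, adjusted p = 0.00819) for 4T1OE and 1.77 ± 0.32 (SE, adjusted p = 0.0139) for 4T1OE-CTL. Bub1b was at 10.42 and 10.47 in Nlrx1-/- and 11.23 and 10.55 in WT 4T1OE tumours, at 10.14 and 10.43 in Nlrx1-/- and 10.70 and 12.09 in WT 4T1OE-CTL tumours, and at 9.24 and 8.80 in Nlrx1-/- and 9.63 and 9.57 in WT parental tumours. Bub1b encodes BubR1, part of the complex that holds Cdc20 in check, and differed by 1.46 (adjusted p = 0.0477) for 4T1OE and 1.64 (adjusted p = 0.0199) for 4T1OE-CTL, with no overlap between either line and the parental arrays. Nuf2, a subunit of the NDC80 complex that grips microtubules, differed by 1.37 (adjusted p = 0.0214) and 1.35 (adjusted p = 0.0132). Its partner Ndc80 was not called, at 1.35 (adjusted p = 0.0751) for 4T1OE and 0.81 (adjusted p = 0.252) for 4T1OE-CTL. The checkpoint kinase Ttk and the kinetochore proteins Cenpe and Cenpf were not called either, with differences for 4T1OE of 1.51, 1.29 and 1.13.

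Spindle, motor and cytokinesis genes gave the most calls, 8 of 9 in 4T1OE and 5 of 9 in 4T1OE-CTL against parental tumours. Nusap1 was at 11.54 and 11.46 in Nlrx1-/- and 11.57 and 11.54 in WT 4T1OE tumours, at 10.55 and 10.996 in Nlrx1-/- and 11.12 and 11.95 in WT 4T1OE-CTL tumours, and at 8.996 and 8.99 in Nlrx1-/- and 9.89 and 10.24 in WT parental tumours. Nusap1, a microtubule-binding protein of the spindle, had 4T1OE values close to one another and all above the parental ones. It differed by 1.92 ± 0.28 (SE, adjusted p = 0.00936) for 4T1OE and 1.54 ± 0.28 (SE, adjusted p = 0.0139) for 4T1OE-CTL. Prc1 was at 9.08 and 9.07 in Nlrx1-/- and 9.83 and 9.57 in WT 4T1OE tumours, at 8.21 and 8.02 in Nlrx1-/- and 9.19 and 10.39 in WT 4T1OE-CTL tumours, and at 7.11 and 6.61 in Nlrx1-/- and 7.997 and 8.39 in WT parental tumours. Prc1 bundles the microtubules of the spindle midzone. Within every line the Nlrx1-/- values lay under the WT ones, and the difference was 1.93 (adjusted p = 0.0162) for 4T1OE and 1.496 (adjusted p = 0.0308) for 4T1OE-CTL. Tpx2 was at 10.62 and 10.55 in Nlrx1-/- and 10.77 and 10.82 in WT 4T1OE tumours, at 9.97 and 9.83 in Nlrx1-/- and 9.84 and 11.33 in WT 4T1OE-CTL tumours, and at 8.34 and 7.92 in Nlrx1-/- and 8.96 and 9.59 in WT parental tumours. Tpx2, which activates Aurora A on the spindle, was higher on all 8 transduced arrays than on the parental ones, by 1.98 (adjusted p = 0.0212) and 1.53 (adjusted p = 0.0389) for 4T1OE and 4T1OE-CTL.

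Kinesin motors belong to the same group. Kif2c was at 10.06 and 10.62 in Nlrx1-/- and 10.54 and 10.93 in WT 4T1OE tumours, at 10.44 and 10.48 in Nlrx1-/- and 10.23 and 11.27 in WT 4T1OE-CTL tumours, and at 9.29 and 7.59 in Nlrx1-/- and 9.36 and 9.58 in WT parental tumours. Kif2c, which shortens microtubules at centromeres, differed by 1.82 (adjusted p = 0.0295) for 4T1OE and 1.88 (adjusted p = 0.0174) for 4T1OE-CTL, again without overlap with the parental arrays. Kif23, a motor of the central spindle, ran from 11.01 to 11.44 on the 4T1OE arrays and from 10.80 to 11.97 on the 4T1OE-CTL arrays, against 9.01 to 10.62 on the parental arrays. It gave the smallest adjusted p among the cell cycle genes for 4T1OE-CTL against parental tumours, 0.00921 at 1.497, beside 1.31 (adjusted p = 0.0274) for 4T1OE. Kif11, the motor that pushes spindle poles apart, and Kif20a, a motor of cytokinesis, rose in 4T1OE, by 1.71 (adjusted p = 0.019) and 1.90 (adjusted p = 0.0323). In 4T1OE-CTL their differences of 1.18 (adjusted p = 0.0556) and 0.95 (adjusted p = 0.241) did not pass. Cdca8, the borealin subunit of the chromosomal passenger complex, rose by 1.24 (adjusted p = 0.021) in 4T1OE, and its 0.78 (adjusted p = 0.0864) in 4T1OE-CTL did not pass. Birc5, or survivin, of the same complex, was called in neither, at 1.21 and 1.195.

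**Figure D4:**
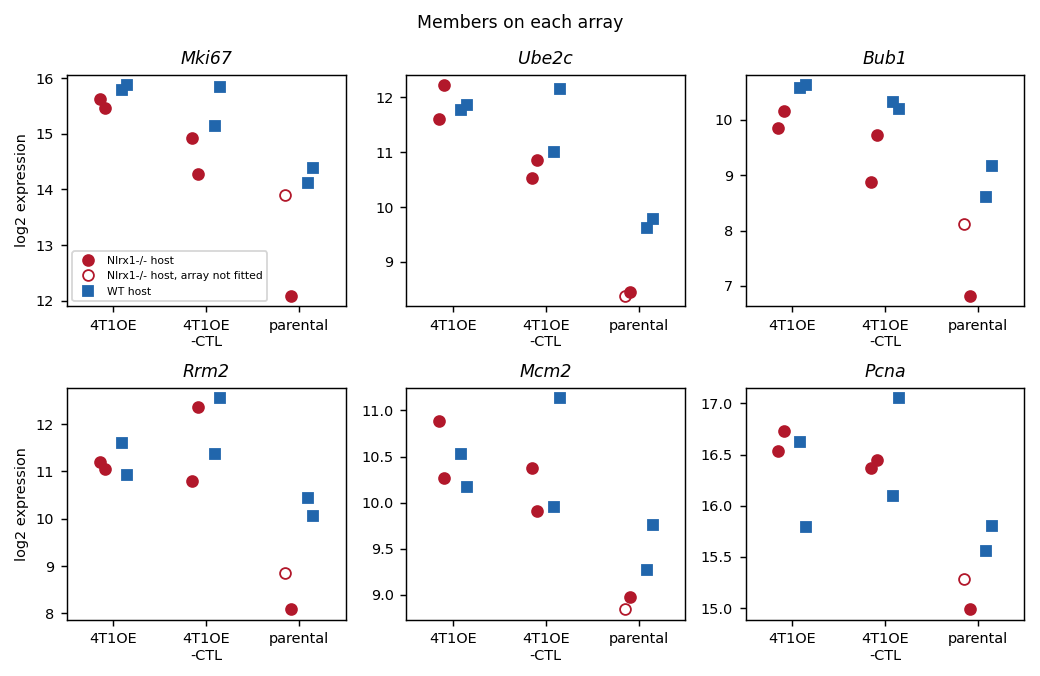
Log2 expression (y axis) of Mki67, Ube2c, Bub1, Rrm2, Mcm2 and Pcna on each array by injected line (x axis). Red circles are Nlrx1-/- hosts, blue squares WT hosts and the open circle the array left out of the fits. For Ube2c the parental arrays end at 9.79 and the others begin at 10.53, while for Pcna WT 4T1OE replicate 2 and WT parental replicate 2 both lie at 15.80.

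S-phase genes gave fewer calls, 1 of 15 in 4T1OE and 2 of 15 in 4T1OE-CTL against parental tumours. Among 3 genes of nucleotide supply, Rrm2 had the widest range. Rrm2 was at 11.21 and 11.05 in Nlrx1-/- and 11.60 and 10.92 in WT 4T1OE tumours, at 10.79 and 12.36 in Nlrx1-/- and 11.36 and 12.54 in WT 4T1OE-CTL tumours, and at 8.84 and 8.09 in Nlrx1-/- and 10.45 and 10.06 in WT parental tumours. Rrm2 is the small subunit of ribonucleotide reductase, and all 8 transduced arrays exceeded the parental ones. It rose by 2.36 ± 0.48 (SE, adjusted p = 0.0252) in 4T1OE-CTL, and its 1.78 ± 0.48 (SE, adjusted p = 0.103) in 4T1OE did not pass. Rrm1, the large subunit, differed by 1.002 for 4T1OE and 0.87 for 4T1OE-CTL, and Tyms, thymidylate synthase, by 0.63 and 0.53, none of them called.

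Replication licensing and helicase genes, 7 of 8 measured, gave 0 calls in 4T1OE and 1 in 4T1OE-CTL, though all 7 had an unadjusted p under 0.05 in 4T1OE. Mcm2 was at 10.88 and 10.26 in Nlrx1-/- and 10.53 and 10.17 in WT 4T1OE tumours, at 10.38 and 9.91 in Nlrx1-/- and 9.95 and 11.13 in WT 4T1OE-CTL tumours, and at 8.85 and 8.98 in Nlrx1-/- and 9.27 and 9.76 in WT parental tumours. Mcm2, a helicase subunit, was higher on every transduced array than on every parental one. The differences were 1.16 ± 0.32 (SE, adjusted p = 0.109) for 4T1OE and 1.04 ± 0.32 (SE, adjusted p = 0.119) for 4T1OE-CTL. Mcm5 was at 9.77 and 9.80 in Nlrx1-/- and 9.85 and 9.35 in WT 4T1OE tumours, at 9.70 and 8.85 in Nlrx1-/- and 8.88 and 10.12 in WT 4T1OE-CTL tumours, and at 8.52 and 6.83 in Nlrx1-/- and 8.54 and 8.96 in WT parental tumours. Mcm5, another subunit, had its lowest value far below the rest on Nlrx1-/- parental replicate 2, and WT parental replicate 2 overlapped 4T1OE-CTL. It differed by 1.66 (adjusted p = 0.093) for 4T1OE and 1.36 (adjusted p = 0.14) for 4T1OE-CTL. Mcm4 was the called subunit, up by 1.30 (adjusted p = 0.0457) in 4T1OE-CTL beside 1.203 (adjusted p = 0.0834) in 4T1OE. Mcm3 and Mcm6 differed by 1.33 and 1.202 for 4T1OE and by 0.68 and 1.05 for 4T1OE-CTL. Cdc6, which loads the helicase, was at 1.47 and 0.63 and was under the negative control median on 1 array. Gins2 was at 8.28 and 8.14 in Nlrx1-/- and 8.17 and 8.01 in WT 4T1OE tumours, at 6.82 and 6.67 in Nlrx1-/- and 7.20 and 8.19 in WT 4T1OE-CTL tumours, and at 5.48 and 6.06 in Nlrx1-/- and 7.29 and 8.39 in WT parental tumours. Gins2, part of the active helicase, had its lowest value on Nlrx1-/- parental replicate 1 and its highest on WT parental replicate 2, so the parental arrays spanned all others. It differed by 1.03 for 4T1OE and 0.10 for 4T1OE-CTL.

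At the fork, 1 of 2 genes was called in 4T1OE and none in 4T1OE-CTL. Pcna was at 16.53 and 16.73 in Nlrx1-/- and 16.63 and 15.80 in WT 4T1OE tumours, at 16.37 and 16.45 in Nlrx1-/- and 16.10 and 17.05 in WT 4T1OE-CTL tumours, and at 15.28 and 14.99 in Nlrx1-/- and 15.56 and 15.80 in WT parental tumours. Pcna is the clamp that holds the polymerase to DNA, and WT 4T1OE replicate 2 sat beside the higher WT parental value. The differences were 0.98 ± 0.31 (SE, adjusted p = 0.162) for 4T1OE and 1.05 ± 0.31 (SE, adjusted p = 0.103) for 4T1OE-CTL. Uhrf1 was at 10.76 and 10.59 in Nlrx1-/- and 10.94 and 10.58 in WT 4T1OE tumours, at 9.55 and 10.10 in Nlrx1-/- and 9.99 and 10.89 in WT 4T1OE-CTL tumours, and at 10.28 and 8.87 in Nlrx1-/- and 9.62 and 9.46 in WT parental tumours. Uhrf1 carries DNA methylation over to the new strand and was the S-phase gene called in 4T1OE, up by 1.47 ± 0.26 (SE, adjusted p = 0.0217), with 0.89 (adjusted p = 0.106) in 4T1OE-CTL. The left-out parental array was the highest of the parental values, yet below all 4T1OE values.

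The regulators of entry gave no call. Ccne1 was at 8.31 and 8.30 in Nlrx1-/- and 8.48 and 7.85 in WT 4T1OE tumours, at 8.49 and 8.16 in Nlrx1-/- and 8.25 and 9.19 in WT 4T1OE-CTL tumours, and at 8.03 and 7.06 in Nlrx1-/- and 7.63 and 8.28 in WT parental tumours. Ccne1 and Ccne2 encode the cyclin E proteins. Ccne1 overlapped between all 3 lines, and differed by 0.63 (adjusted p = 0.394) for 4T1OE and 0.92 (adjusted p = 0.158) for 4T1OE-CTL. Ccne2 was at 8.60 and 9.14 in Nlrx1-/- and 8.46 and 8.12 in WT 4T1OE tumours, at 7.91 and 8.74 in Nlrx1-/- and 7.82 and 9.19 in WT 4T1OE-CTL tumours, and at 7.19 and 6.72 in Nlrx1-/- and 7.70 and 7.84 in WT parental tumours. For Ccne2 the 4T1OE arrays cleared the parental ones and the 4T1OE-CTL arrays did not, with differences of 1.18 (adjusted p = 0.194) and 1.01 (adjusted p = 0.231). E2f1 was at 6.36 and 5.88 in Nlrx1-/- and 6.24 and 5.84 in WT 4T1OE tumours, at 5.19 and 4.67 in Nlrx1-/- and 5.04 and 6.19 in WT 4T1OE-CTL tumours, and at 4.43 and 5.66 in Nlrx1-/- and 4.69 and 5.72 in WT parental tumours. E2f1, the transcription factor of S-phase entry, was dim, under the negative control median on 5 arrays. Its 4T1OE values were above all parental ones, with a fitted difference of 0.74 (adjusted p = 0.396), and it was the 1 gene with a negative difference for 4T1OE-CTL, -0.06 (adjusted p = 0.958), a sign that turned when all 12 arrays were fitted (0.15) and in other fits.

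Cell cycle genes outside the 44 were counted in lists picked by function. Their calls come from the same fit of 11 arrays, with 1 Nlrx1-/- parental array. Across all features, 0.887% rose in 4T1OE and 0.968% in 4T1OE-CTL against parental tumours. Of 40 other mitotic genes, all 40 were higher in both transduced lines than in parental tumours. In 4T1OE 14 rose (median of the list 1.28), led by Racgap1 (2.13), Melk (2.06), Anln (1.92) and Aspm (1.83). In 4T1OE-CTL 10 rose (median 1.11), led by Anln (1.91), Dlgap5 (1.81), Kif14 (1.55) and Hmmr (1.45). Anln and Racgap1 act in cytokinesis, and Aspm, Dlgap5 and Hmmr at the spindle. Of 26 measured other replication genes, 2 rose in 4T1OE, Cdc45 of the active helicase (1.82) and Dbf4, the activator of the replication kinase Cdc7 (1.63), and Cdc45 alone rose in 4T1OE-CTL (2.01). Of 15 E2F and DREAM factors E2f8, a repressor among the E2Fs, rose in 4T1OE (1.89). Of 10 inhibitors and pocket proteins Rb1 rose in 4T1OE (1.44), and of 7 measured G1 cyclins and kinases Cdk6 did (1.68). None of 11 measured DNA damage checkpoint genes was called in either comparison by limma. At an unadjusted p under 0.05, 3 were higher in 4T1OE, against 8.11% of features. In 4T1OE-CTL 2 were higher, with no share of all features to set beside them.

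Setting 4T1OE against its own control line asks what the overexpression adds to transduction. No cell cycle gene was called, where 3.69% of features rose and 1.04% fell. Of the 41, 31 were higher in 4T1OE and the median difference was 0.34 (0.43 for mitosis, 0.16 for S phase), against -0.05 over all features. After quantile normalization the median was 0.05, with 22 of 41 higher, and that of the S-phase genes turned to -0.16. At an unadjusted p under 0.05, 7 of 41 were higher and 0 lower, against 14.3% of features higher. The smallest p belonged to Kif20a, Ccna2 and Gins2. Kif20a was at 10.43 and 10.72 in Nlrx1-/- and 10.92 and 10.54 in WT 4T1OE tumours, at 8.89 and 8.99 in Nlrx1-/- and 9.92 and 11.01 in WT 4T1OE-CTL tumours, and at 8.43 and 7.65 in Nlrx1-/- and 9.71 and 9.46 in WT parental tumours. For Kif20a the 4T1OE values were within 0.5 of one another and lay above 3 of the 4 4T1OE-CTL values, with a limma difference of 0.95 ± 0.34 (SE, adjusted p = 0.124). Ccna2, whose values are given above, differed by 0.95 (adjusted p = 0.148) and Gins2 by 0.93 (adjusted p = 0.151). The 95% interval of the difference for Mki67 was -0.06 to 1.35 and for Pcna -0.69 to 0.55.

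Both WT 4T1OE-CTL arrays weighed on this comparison. Without replicate 2, the array with the highest values for 28 genes, 4 of 41 cell cycle genes were called higher in 4T1OE, against 8.42% of features in the same fit. Without replicate 1 the median was 0.16 over all 41 genes and -0.00095 over the S-phase genes, and leaving out 1 array at a time gave medians up to 0.53. The median turned to -0.072 when each array's standard deviation entered the fit as a covariate, and to -0.30 when the 4 arrays under 3 were dropped. That drop left WT 4T1OE-CTL replicate 2, the array with the highest values for 28 genes, as the only 4T1OE-CTL array. Outside the 44, limma called 3 genes of the other cell cycle lists higher in 4T1OE, namely Cdkn1a, an inhibitor of cyclin-dependent kinases (1.87), the G1 kinase Cdk6 (1.48) and E2f5, a repressive E2F (0.93). Cdkn1a was at 9.12 and 8.30 in Nlrx1-/- and 8.86 and 10.55 in WT 4T1OE tumours, at 6.16 and 6.32 in Nlrx1-/- and 8.42 and 8.43 in WT 4T1OE-CTL tumours, and at 6.50 and 7.14 in Nlrx1-/- and 6.95 and 8.09 in WT parental tumours. All but 1 of the 4T1OE values of Cdkn1a were above all 4T1OE-CTL ones. Beside these, 5 of 9 macrophage genes and 3 of 8 endothelial genes rose in 4T1OE relative to 4T1OE-CTL, and the macrophage list ran from 0.42 to 0.88 on the 4T1OE arrays, against -1.66 to 0.02 on the 4T1OE-CTL arrays. Their part in the cell cycle values was not tested.

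The same contrast was then made within each host. In WT hosts no cell cycle gene was called between 4T1OE and 4T1OE-CTL (0% of features rose and 0.0135% fell), 1 was lower at an unadjusted p under 0.05 (3.11% of features were), 19 of 41 were higher and the median was -0.035. That median was 0.43 without WT 4T1OE-CTL replicate 2 and -0.54 without replicate 1, and it turned to 0.05 when each array was centred on its median. Top2a, Kif23 and Mcm4 had the smallest p, with differences of -0.98 (adjusted p = 0.584), -0.49 (adjusted p = 0.682) and -0.47 (adjusted p = 0.767). In Nlrx1-/- hosts 0 were called as well (1.1% of features rose and 0.0946% fell), but 37 of 41 were higher with a median of 0.62 (0.68 for mitosis, 0.52 for S phase), against -0.06 over all features. That median was 0.23 after quantile normalization and -0.017 with the array's standard deviation as a covariate. Unadjusted, 17 of 41 were higher at p under 0.05, against 13.2% of features. Kif20a was nearest to the threshold at 1.64 (adjusted p = 0.0574), followed by Ndc80 at 1.17 (adjusted p = 0.0943) and Gins2 at 1.46 (adjusted p = 0.0993). E2f1 lay under the negative control median on both Nlrx1-/- 4T1OE-CTL arrays, so its difference there is only a bound, at least 0.50 on the log2 scale (adjusted p = 0.191).

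Of the 13 epithelial markers, 9 were higher and 4 lower in 4T1OE relative to 4T1OE-CTL in Nlrx1-/- hosts, with a median of 0.83, and 2 rose, Cdh1 by 3.08 and Krt18 by 2.10. Of 12 skeletal muscle genes, 11 were lower there with a median of -1.94, and by limma 0 were called, as 0 had an unadjusted p under 0.05. Their part in the cell cycle values was not tested.

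The difference between hosts was tested itself, as the interaction. No cell cycle gene was called (0% of features), while 39 of 41 had a larger difference in Nlrx1-/- hosts, with a median of 0.59. At an unadjusted p under 0.05 there were 3 of 41, against 2.15% of features in the same direction, Ndc80 at 1.25 (adjusted p = 0.999), Kif20a at 1.37 (adjusted p = 0.999) and Rrm1 at 1.06 (adjusted p = 0.999). Ndc80 was at 8.99 and 9.61 in Nlrx1-/- and 9.53 and 8.88 in WT 4T1OE tumours, at 8.28 and 7.99 in Nlrx1-/- and 9.18 and 9.40 in WT 4T1OE-CTL tumours, and at 6.74 and 7.12 in Nlrx1-/- and 8.58 and 8.38 in WT parental tumours. In Nlrx1-/- hosts both 4T1OE values of Ndc80 were above both 4T1OE-CTL values, and in WT hosts the pairs overlapped. Without WT 4T1OE-CTL replicate 2 the median of the interaction was 0.25.

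Host genotype was compared next, with the lines kept apart in the additive fit. No cell cycle gene was called between Nlrx1-/- and WT hosts (0% of features), yet 40 of 41 were lower in Nlrx1-/- hosts, with a median of -0.73 (-0.85 for mitosis, -0.43 for S phase) against 0.00 over all features. At an unadjusted p under 0.05, 27 of 41 were lower, 23 mitotic and 4 S-phase, against 2.68% of features. Prc1, Nuf2 and Kif11 had the smallest p, at -1.26 ± 0.25 (SE, adjusted p = 1), -0.91 ± 0.19 (SE, adjusted p = 1) and -1.01 ± 0.23 (SE, adjusted p = 1). The values of Prc1 are given above. Nuf2 was at 10.72 and 10.65 in Nlrx1-/- and 11.09 and 11.27 in WT 4T1OE tumours, at 10.38 and 10.44 in Nlrx1-/- and 11.16 and 11.69 in WT 4T1OE-CTL tumours, and at 8.95 and 8.79 in Nlrx1-/- and 10.42 and 9.94 in WT parental tumours. Kif11 was at 11.55 and 12.26 in Nlrx1-/- and 12.22 and 12.49 in WT 4T1OE tumours, at 10.97 and 11.21 in Nlrx1-/- and 12.07 and 12.15 in WT 4T1OE-CTL tumours, and at 10.55 and 9.36 in Nlrx1-/- and 11.32 and 11.09 in WT parental tumours. For Nuf2 every Nlrx1-/- value lay under both WT values of the same line, and for Kif11 this held in 4T1OE-CTL and parental tumours. Other genes were nearly level, with -0.08 for Pcna, -0.07 for Cdca8 and 0.03 for Tyms, the 1 gene that was higher. Without the fitted Nlrx1-/- parental array the median was -0.42, a host difference drawn from the transduced lines alone.

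**Figure D5:**
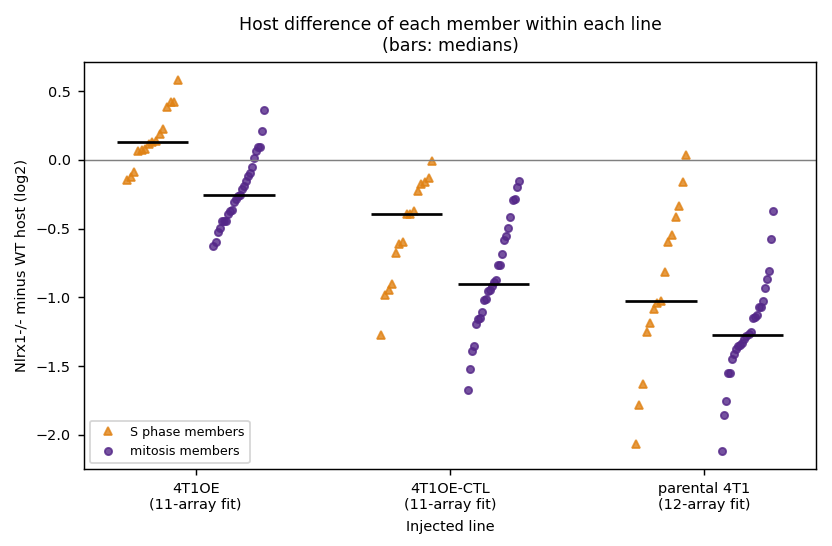
Difference between Nlrx1-/- and WT hosts (y axis, log2) of each S-phase gene (orange triangles) and each mitotic gene (purple circles) within each injected line (x axis), with bars at the medians. The mitotic medians are -0.26 in 4T1OE, -0.90 in 4T1OE-CTL and -1.27 in parental tumours, the last from a fit of all 12 arrays.

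Line by line, the host difference had a median of -0.093 in 4T1OE and -0.76 in 4T1OE-CTL tumours. Gene by gene, though not for the medians, the gap between these lines is the interaction given above. The 4T1OE value rested on single arrays, since it was 0.05 without WT 4T1OE replicate 1 and -0.21 without Nlrx1-/- 4T1OE replicate 2. In 4T1OE tumours no gene was called (0% of features) and none had an unadjusted p under 0.05, with medians of -0.26 for mitosis and 0.13 for S phase, the second of which ran from -0.06 without WT 4T1OE replicate 2 to 0.37 without WT 4T1OE replicate 1. Bub1, Nuf2 and Prc1 had the smallest p there, with -0.59 (adjusted p = 1), -0.50 (adjusted p = 1) and -0.62 (adjusted p = 1). In 4T1OE-CTL tumours no gene was called (0% of features), all 41 were lower in Nlrx1-/- hosts, and the medians were -0.90 for mitosis and -0.40 for S phase. Unadjusted, 19 of 41 were lower at p under 0.05, against 6.29% of features. The smallest p belonged to Prc1 at -1.68 (adjusted p = 0.312), Kif20a at -1.52 (adjusted p = 0.351) and Ndc80 at -1.15 (adjusted p = 0.372). For E2f1 no size is given, since both Nlrx1-/- values were under the negative control median. Without WT 4T1OE-CTL replicate 2 the median was -0.23 over all 41 genes, -0.48 over the mitotic and 0.08 over the S-phase genes.

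In parental tumours the host difference was fitted over all 12 arrays, the left-out one included, a comparison added after the values were seen. No gene was called (0% of features, smallest adjusted p by limma 0.846), 40 of 41 were lower in Nlrx1-/- hosts, and the medians were -1.27 for mitosis and -1.03 for S phase. Unadjusted, 24 of 41 were lower at p under 0.05, against 2.75% of features. Kif23, Gins2 and Ndc80 had the smallest p, with differences of -1.35 for Kif23, -2.07 for Gins2 and -1.55 for Ndc80. Uhrf1 was the 1 gene that was not lower, at 0.04. Whether the host difference in parental tumours exceeded its mean in the transduced lines was tested too. No gene was called (0% of features), 38 of 41 were further down in parental tumours, with a median of -0.68, and 5 of 41 were further down at an unadjusted p under 0.05, against 1.23% of features. The smallest p belonged to Gins2 at -1.65 (adjusted p = 1), Mcm3 at -1.33 (adjusted p = 1) and Ttk at -1.30 (adjusted p = 1). Other markers differed between the hosts as well. The B cell list stood at 3.21 and -0.13 in 4T1OE, at 4.19 and -0.02 in 4T1OE-CTL and at 2.10 and -0.15 in parental tumours of Nlrx1-/- hosts, against -0.37 to 0.12 on the 6 WT arrays. The epithelial list was at 0.48 and 1.04 on the Nlrx1-/- parental arrays, against 2.15 and 2.60 on the WT ones. No marker gene was called for host by limma. At an unadjusted p under 0.05 in the additive fit, 5 of 13 epithelial and 2 of 7 neutrophil genes were lower, against 2.68% of features. There, 3 of 7 B cell genes were higher, with no share of all features to set beside them. The part of these markers in the host values was not tested.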

How the data were processed

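Tumour RNA was measured on 12 Clariom S arrays, each array a pool. The deposited values were on a log2 scale, as their range shows, with 1 value per feature and array made by the authors. Per the submitters' processing notes the software was the Transcriptome Analysis Console, no version stated. How background was corrected and arrays were normalized is not given in the sources used here. No further scaling was applied. After 6640 control features were left out, 22206 remained, and all were tested. Symbols came from the platform annotation, with 1 feature for each of the 41 measured genes. A further array, of the manufacturer's control RNA, was without values, and no 2 tumour arrays were identical.

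All tests were two-sided and run on 11 arrays with lmFit and eBayes of limma 3.58.1 (R 4.3.3), with Benjamini-Hochberg adjustment over all features (12 arrays for the host comparison in parental tumours). An additive model of host and line gave the averaged differences, and 1 mean per group gave those within a line or host. A gene under the median of 5222 negative control features on every array of a side was given a bound. The genes, lists and comparisons were chosen with earlier results of these data known. By rule, 12 genes were to be given on every array, and each comparison named up to 8 called genes in each direction with the largest difference, or the 3 with the smallest p where fewer than 3 were called. From the lists of other cell cycle genes, up to 4 called genes in each direction were named. Further array values were added for genes the results turned on. The alternatives were other scalings, filters, weights, blocks, thresholds and left-out arrays, 27 settings in all. The fits by host and those without arrays high in B cell or muscle genes, like the host comparison in parental tumours and its contrast with the transduced lines, were added after the data were seen. The neutrophil and adipocyte marker lists had no called gene in the comparisons of lines or hosts.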

Additional observations from a re-analysis of the deposited data

Results flagged for a closer look

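Among the 4 arrays of each line, 36 sets of values were searched for an array far from the rest, and 2 were found, where chance gives about 5% of such sets. Mcm5 in 4T1OE tumours had 1 low array, WT replicate 2 at 9.35, with the other 3 between 9.77 and 9.85. The S-phase level in 4T1OE-CTL tumours had 1 high array, WT replicate 2 at 0.93, with the other 3 between -0.20 and -0.09. This is the array that held the highest value of 28 of the 41 genes.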

How the results depend on the processing

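The numbers do not pair the pools by any label, and among 15 pairs of groups the deviations of same-numbered arrays correlated between -0.309 and 0.608, with 4 above 0.1. With the replicate block 16 genes were called for 4T1OE against parental tumours (0.946% of features rose) and 13 for 4T1OE-CTL (0.905%). In the other comparisons 0 were called, as without the block. Leaving out 1 array at a time gave 3 calls (beside 0.194% of features) to 18 (beside 0.833% or 1.09%) for 4T1OE against parental tumours. For 4T1OE-CTL it gave 0 (0.266%) to 15 (1.19%). For 4T1OE against 4T1OE-CTL there were 0 to 4, the 4 beside 8.42% of features. For that contrast in Nlrx1-/- hosts there were 0 to 1, the 1 beside 0.838% of features. The medians then ran from 1.04 to 1.65 and from 0.76 to 1.34 against parental tumours. Between 4T1OE and 4T1OE-CTL the median ran from 0.16 to 0.53 and in WT hosts from -0.54 to 0.43, the interaction from 0.25 to 1.06, the host difference from -0.86 to -0.42, that in 4T1OE tumours from -0.21 to 0.05 and that in 4T1OE-CTL tumours from -1.06 to -0.23.

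For 4T1OE against parental tumours, 10 genes were called after quantile normalization (0.522% of features rose). With a covariate for each array's standard deviation 8 were called (0.338%). At an unadjusted p under 0.05 with a fold of 2 or more, 36 were called (3.26% of features). Without the arrays high in B cell genes 5 were called (0.252%), and 5 without those high in muscle genes (0.194%). In either host alone 0 were called (0%), with medians of 0.84 in WT and 1.92 in Nlrx1-/- hosts. For 4T1OE-CTL the counts were 7 with all 12 arrays (0.5%) and 27 by p and fold (2.34% of features). Without the B cell arrays 9 were called (0.865%), and 2 without the muscle arrays (0.329%, median 1.46). In either host alone 0 were called, beside 0.279% of features in WT and 0% in Nlrx1-/- hosts. Without the arrays of standard deviation under 3 the median was 1.75, with WT replicate 2 as the only 4T1OE-CTL array left. By p and fold, 9 genes were higher in 4T1OE than in 4T1OE-CTL in Nlrx1-/- hosts (8.48% of features), 3 were higher for the interaction (1.77%), 6 were lower for host (0.306%) and 10 lower for host in 4T1OE-CTL tumours (3.04%).

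For 4T1OE against 4T1OE-CTL the median was -0.072 with the covariate, -0.30 without the arrays under 3 and -0.035 in WT hosts. In WT hosts it was -0.35 with the covariate, -0.54 without the arrays under 3 and -0.53 without the muscle arrays. In Nlrx1-/- hosts it was 0.23 after quantile normalization and -0.017 with the covariate. There, centring each array on its median gave 1 call among the 41 genes, while 2.45% of features rose. Without the muscle arrays the interaction was 1.26 and the host difference in 4T1OE-CTL tumours -1.20, and with the covariate -0.41. The E2f1 difference between 4T1OE-CTL and parental tumours turned to 0.15 with all 12 arrays, 0.38 with the covariate, 0.51 without the arrays under 3, 0.41 in WT hosts and 0.33 without the muscle arrays, and ran from -0.43 to 0.22 when 1 array was left out. Some of these fits kept few arrays. Without the arrays under 3, the only 4T1OE-CTL array was WT replicate 2, which held the highest value of 28 genes. Without the muscle arrays, 4T1OE-CTL kept WT replicate 2 and Nlrx1-/- replicate 1, and WT 4T1OE kept replicate 2. The cause of these moves was not tested.

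Quantile normalization split the called features of 4T1OE against parental tumours into 116 higher and 121 lower, beside 197 and 98 as deposited. For 4T1OE against 4T1OE-CTL the split was 373 and 204 after quantile normalization and 1165 and 153 after centring, beside 820 and 231, and in Nlrx1-/- hosts 45 and 12 after quantile normalization beside 244 and 21. Centring moved the median of all features between 4T1OE and 4T1OE-CTL to 0.07, beside -0.05 as deposited. E2f1, Cdc6 and Gins2 lay under the negative control median on some arrays, which limits how their differences can be read.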

Other observations

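Other genes around the cell cycle list were read on every array. Myc was at 14.66 and 14.16 in Nlrx1-/- and 14.49 and 14.39 in WT 4T1OE tumours, at 13.89 and 13.31 in Nlrx1-/- and 13.36 and 13.995 in WT 4T1OE-CTL tumours, and at 12.81 and 13.84 in Nlrx1-/- and 14.30 and 14.19 in WT parental tumours. Myc, a transcription factor of growth and proliferation, had both WT 4T1OE values just above both WT parental values, and its 3 lowest values were on the left-out parental array and on 2 arrays of 4T1OE-CTL. Ccnd2 was at 10.67 and 9.73 in Nlrx1-/- and 9.99 and 9.68 in WT 4T1OE tumours, at 10.95 and 8.84 in Nlrx1-/- and 9.36 and 10.42 in WT 4T1OE-CTL tumours, and at 8.97 and 8.76 in Nlrx1-/- and 8.87 and 8.997 in WT parental tumours. Ccnd2, a D-type cyclin of G1, had its highest values on the replicate 1 arrays of Nlrx1-/- 4T1OE-CTL and Nlrx1-/- 4T1OE, the arrays that also stood out for B cell genes. Mybl2 was at 7.62 and 7.44 in Nlrx1-/- and 7.60 and 7.70 in WT 4T1OE tumours, at 7.43 and 6.54 in Nlrx1-/- and 6.95 and 7.95 in WT 4T1OE-CTL tumours, and at 6.37 and 5.27 in Nlrx1-/- and 6.63 and 6.75 in WT parental tumours. Mybl2, the Myb factor that works with MuvB on mitotic promoters, was above all 4 parental values on all 4T1OE arrays. These genes were picked for their part in the cycle after other values had been seen, and no test is given for them.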
